A study of Mus musculus with 128 samples.

Results

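A set of 10 genes of vascular calcification and of cartilage, out of 55285 gene symbols measured, was followed in mouse aorta over age and set beside 7 other tissues. The genes are Mgp, Ibsp, Tnfrsf11b, Runx2, Alpl, Enpp1, Acan, Cytl1, Chad and Omd. They were named with values of the Aorta table in view, so their levels and differences in Aorta are given as a description, without tests. Tests are reported for the other 7 tissues. Messenger RNA was sequenced at 6, 15, 24 and 30 months from Aorta and from Brain, Heart, Kidney, Liver, Lung, Skin and Muscle, the last being gastrocnemius. The mice were untreated wild-type C57BL/6J males. The Aorta records leave out sex and strain, which for them come from the text on the whole study. There were 4 libraries for each tissue and age, 128 in all, and nothing in the labels says whether libraries of different tissues came from the same animals. P-values therefore measure the spread between these libraries.

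Calcification of the arterial wall deposits calcium phosphate in the medial or intimal layer, and the wall holds genes that favour it and genes that oppose it. MGP, the matrix Gla protein, is a secreted inhibitor of calcification made by vascular smooth muscle cells and by chondrocytes. ENPP1 makes pyrophosphate, which blocks crystal growth, and ALPL, tissue-nonspecific alkaline phosphatase, breaks pyrophosphate down. RUNX2 is the transcription factor that directs osteoblast formation, and IBSP, bone sialoprotein, is a mineral-binding protein of bone. TNFRSF11B, osteoprotegerin, is a decoy receptor for RANK ligand. ACAN (aggrecan), CYTL1, CHAD (chondroadherin) and OMD (osteomodulin) are proteins of cartilage or mineralised matrix.

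Recovered library depth ran from 12539205 to 35592835 reads in Aorta and from 7647585 to 82801330 over all tissues. The smooth muscle markers, among them Acta2 and Myh11, summed to 54323 to 98201 normalised reads in the Aorta libraries at 6 months and to 53806 to 92340 at 30 months, and none of the 10 markers was at 0. All 10 lay below their 6 month mean at 15 and at 24 months, with median log2 differences of -0.46 and -0.61, and 7 of 10 did at 30 months (-0.11). A normalised read is a read count scaled to the depth of its library within the table of that tissue. The Aorta libraries also held fat and heart muscle. The 6 adipocyte markers summed to 100057 to 160187 at 6 months and to 148645 to 183515 at 30 months, and Ucp1, the uncoupling protein of brown fat, had a mean of 49479 at 6 months and 87067 at 30 months. On the log2 scale Ucp1 differed by 0.92 ± 0.30 and the other 5 adipocyte markers by -0.18 to 0.15, so the higher sum came mostly from Ucp1. The 6 cardiac muscle markers summed to 106, 594, 30950 and 722 in replicates 1 to 4 at 6 months and to 17427, 7586, 20084 and 247 at 30 months. The airway epithelium markers stayed between 1.06 and 90.2 in all 16 libraries, and none of the 6 passed the filter on low values. The 6 leukocyte markers summed to 3057 to 9913 at 6 months and 8976 to 16242 at 30 months. In bulk tissue, a different number of cells of a type and a different amount of RNA per cell cannot be told apart.

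**Figure D1:**
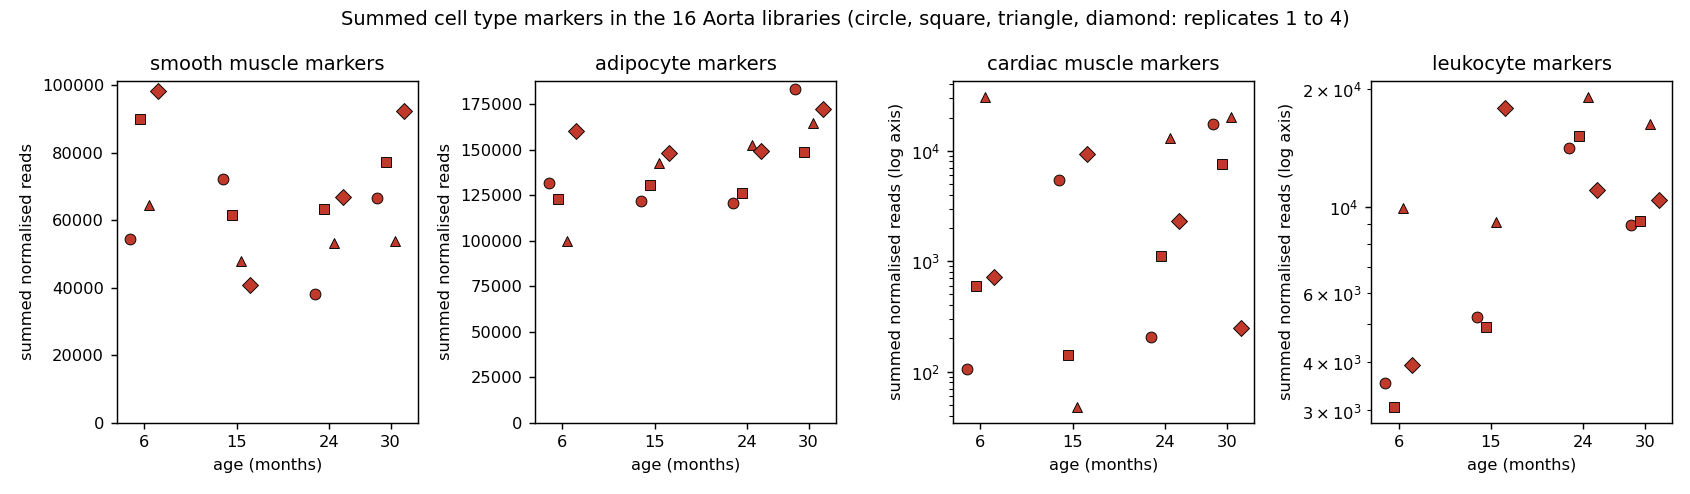
Summed normalised reads of 4 cell type marker lists (y axis, logarithmic for cardiac muscle and leukocyte) against age in months (x axis) in the 16 Aorta libraries, each point 1 library, with the symbol giving its replicate number. The cardiac muscle sum differs between libraries of the same age (106 to 30950 at 6 months), while the smooth muscle and adipocyte sums of 6 and 30 months overlap.

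The inhibitor Mgp was the most abundant of the 10 genes in Aorta. Its values at 6 months were 4826, 5932, 4768 and 6818 normalised reads. At 15 months they were 5326, 4396, 4153 and 3927, and at 24 months 6740, 9341, 6933 and 8405. At 30 months they were 9381, 12064, 8772 and 11100, so that all 4 libraries lay above all 4 of the 6 month libraries, while those of 15 and 24 months overlapped with 6 months. The mean was 5586 ± 981 (SD, n = 4) at 6 months and 10329 ± 1519 at 30 months. On the log2(value + 1) scale the difference from 6 months was -0.32 ± 0.14 (SE) at 15 months, 0.49 ± 0.14 at 24 months and 0.89 ± 0.14 at 30 months.

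Enpp1, the pyrophosphate producer, took a similar course at a lower level. It had 90.2, 79.9, 89.0 and 114 normalised reads at 6 months, and 80.9, 73.5, 70.9 and 77.6 at 15 months. At 24 months the values were 94.8, 102, 103 and 107, and at 30 months 127, 140, 112 and 119. The highest library at 6 months lay above the lowest at 30 months, so the groups overlapped, and the log2 difference at 30 months was 0.42 ± 0.12. Alpl, the enzyme that removes pyrophosphate, ranged from 149 to 300.2 over the 16 libraries, with means of 204 ± 47.1 (SD, n = 4) at 6 months, 261 ± 27.6 at 15 months, 169.7 ± 24.1 at 24 months and 242 ± 21.7 at 30 months. The highest group was that of 15 months and the lowest that of 24 months, and each overlapped with 6 months. Its log2 difference at 30 months was 0.27 ± 0.15, and 0.05 with the adipocyte sum of each library as a covariate.

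Tnfrsf11b, the osteoprotegerin gene, had 54.4, 68.0, 66.5 and 93.8 normalised reads at 6 months and 51.9, 59.5, 52.3 and 74.8 at 15 months. It had 98.6, 92.3, 94.9 and 120 at 24 months and 129, 217, 95.0 and 158 at 30 months. Every library at 30 months lay above every library at 6 months, the closest pair being 95.0 and 93.8. The log2 difference was -0.23 ± 0.22 at 15 months, 0.54 ± 0.22 at 24 months and 1.04 ± 0.22 at 30 months. RANK ligand was scarcely present: its gene Tnfsf11 had a mean of 1.44 normalised reads at 6 months and 0.676 at 30 months and was too low to test. Tnfsf10, listed with it, had 105 to 412 at 6 months and 292 to 516 at 30 months. Tnfrsf11a, the signalling receptor RANK, had 106 at 6 months and 107 at 30 months. Of the 4 genes of this axis 3 were tested, and 0 passed an adjusted p of 0.05 at 30 months by limma, edgeR or DESeq2, with 1 at an unadjusted limma p under 0.05 (Traf6, the adaptor of RANK, -0.26 ± 0.12).

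Ibsp, the bone sialoprotein gene, showed the largest relative difference of the 9 genes tested and rested on few reads. The 4 libraries held 4, 1, 1 and 2 reads at 6 months, 5, 9, 5 and 10 at 15 months, 14, 24, 10 and 10 at 24 months and 23, 26, 10 and 42 at 30 months. In normalised reads the values were 5.31, 1.19, 0.98 and 2.57 at 6 months and 11.3, 27.7, 11.5 and 51.4 at 30 months. At each later age all 4 libraries lay above all 4 of 6 months. The log2 difference was 1.32 ± 0.50 at 15 months, 2.27 ± 0.50 at 24 months and 2.80 ± 0.50 at 30 months. At these low counts the size depends on the pseudocount, being 1.86 with a pseudocount of 5 and 3.30 with 0.1. Leaving out 1 library of either age in turn gave 2.38 to 3.14. In the other 7 tissues Ibsp had 1 read or more in 27 of the 112 libraries, and it was too low to test in each of them. Its highest value there was 26.4 normalised reads, in Brain at 30 months, replicate 3, where the other 3 libraries of that age had 0 to 1.52.

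Runx2, the osteoblast regulator, stood at 30 reads in all at 6 months in Aorta, with 3.98, 4.77, 15.7 and 8.99 normalised reads. The range was 8.82 to 25.6 at 15 months, 9.48 to 17.2 at 24 months and 8.88 to 20.8 at 30 months. The groups overlapped at every age, and the log2 difference at 30 months was 0.83 ± 0.42. The osteoblast genes Sp7 and Bglap were close to 0 in Aorta. Sp7, which acts downstream of RUNX2, had at most 5.14 normalised reads in any library, and Bglap, osteocalcin, at most 2.84. This did not hold for the whole list of osteoblast and mineralisation genes, of which 15 of 22 passed the filter. At 6 months Phospho1 had 3696 to 6474 normalised reads and Sparc 12039 to 15003. Spp1, osteopontin, ranged from 5.96 to 468, with the highest mean, 152, at 15 months.

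Of the cartilage genes, Acan had 10.6, 11.9, 34.2 and 47.5 normalised reads at 6 months and 16.9 to 20.6 at 15 months. It had 50.2, 79.6, 53.8 and 32.9 at 24 months and 47.4, 47.9, 45.8 and 85.6 at 30 months. Replicates 3 and 4 at 6 months reached the range of the older libraries, so the groups overlapped, and the log2 difference at 30 months was 1.31 ± 0.40. Cytl1, a secreted cytokine-like protein of chondrocytes, was the second most abundant of the 10 per base of transcript in Aorta and ranged from 134 to 644. Its log2 difference at 30 months was 0.08 ± 0.31, and -0.16 with the adipocyte covariate. Omd, a small leucine-rich proteoglycan of bone, ranged from 35.1 to 89.3, with a log2 difference of -0.55 ± 0.22 at 24 months and -0.05 ± 0.22 at 30 months. Chad had 0 to 2 reads per library in Aorta, 13 reads in all 16, and did not pass the filter. For Chad the name of the set is therefore not matched by reads in Aorta.

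**Figure D2:**
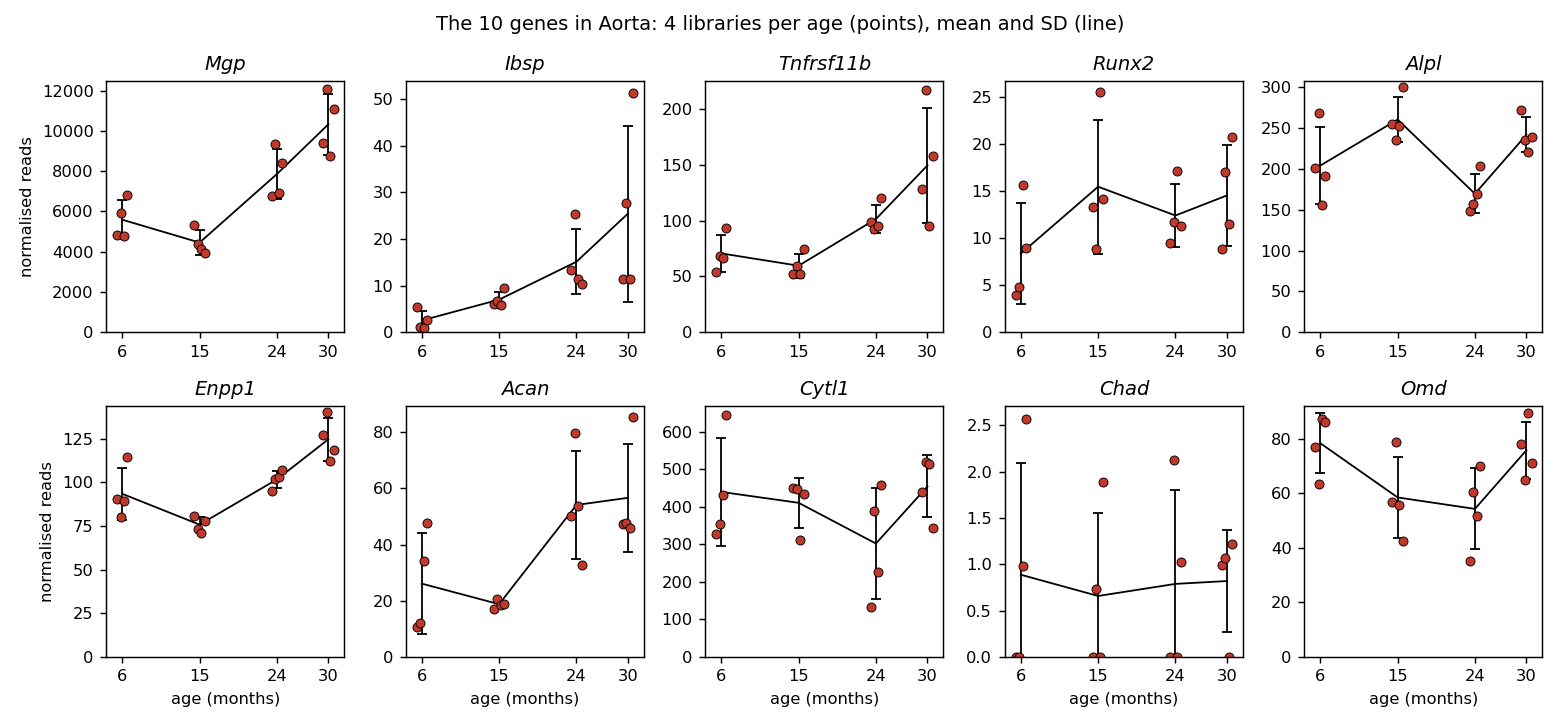
Normalised reads (y axis, from 0) of the 10 genes in Aorta against age in months (x axis), with 4 libraries per age as points and a line through the means with SD bars. Mgp, Ibsp and Tnfrsf11b have all 4 libraries of 30 months above all 4 of 6 months, and Chad stays at 0 to 2.57.

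Of the 9 genes that passed the filter in Aorta, 3 (Mgp, Ibsp and Tnfrsf11b) lay wholly above 6 months at 30 months, where 6.51% of all 15186 genes did. Nothing is read from this count, since the genes were chosen on these libraries. The median log2 difference of the 9 was -0.19, 0.49 and 0.83 at 15, 24 and 30 months, beside 0.01, 0.01 and 0.01 over all genes tested. With the log2 adipocyte sum as a covariate, the number of all genes passing at 30 months fell from 850 to 48. As given above, this sum ran higher at 30 months mostly from Ucp1, so the covariate is partly tied to age and is no plain measure of fat. Under that covariate Mgp differed by 0.86, Ibsp by 2.66, Tnfrsf11b by 0.90, Enpp1 by 0.31, Acan by 1.25 and Runx2 by 0.96. With the cardiac muscle sum these were 0.91, 3.05, 1.03, 0.40, 1.28 and 0.76. Replicate 4 at 30 months, which had the lowest cardiac muscle sum of its age, had 11100 normalised reads of Mgp and 51.4 of Ibsp. The part of fat and heart muscle in these differences was not tested.

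Expressed as RPKM, that is with reads scaled to exon length and library depth, the 6 month means in Aorta were 275 ± 36.6 (SD, n = 4) for Mgp, 24.3 ± 7.13 for Cytl1, 2.96 ± 0.63 for Alpl, 2.05 ± 0.32 for Omd and 1.46 ± 0.29 for Tnfrsf11b. Below these came Enpp1 at 0.533 ± 0.071, Acan at 0.204 ± 0.14, Ibsp at 0.0715 ± 0.058, Runx2 at 0.0559 ± 0.038 and Chad at 0.0303 ± 0.040. Neighbours in that order overlapped from Alpl to Tnfrsf11b and from Acan to Chad, and the others did not. At 30 months Mgp stood at 514 ± 84.2 and Ibsp at 0.73 ± 0.55 on the same scale.

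Across the 16 Aorta libraries, which share the ages and the tissue mixtures given above, the log2 values of Mgp correlated with those of Enpp1 (r = 0.91), Tnfrsf11b (0.89), Acan (0.76) and Ibsp (0.67). Alpl, Cytl1, Runx2 and Omd stood outside this group, with r of -0.14, 0.12, 0.14 and 0.19 to Mgp. Cytl1 and Omd correlated with each other (0.71). Among 11268 other genes with a mean of 50 reads or more, those most like Mgp were Nupr1 (0.96), Ccn3 (0.91) and Kyat3 (0.91). Those most like Tnfrsf11b were Kyat3 (0.90), Ccn3 (0.88) and Vcan (0.88), and those most like Enpp1 were Kyat3 (0.90), Bsg (0.89) and Sulf1 (0.87). Vcan is versican, a large proteoglycan related to aggrecan. The genes most like Omd were C7, Serpinf1 and Igfbp5 (0.85, 0.84 and 0.84), and those most like Cytl1 were Ogn, the mimecan gene, Ldlrad4 and Ensa (0.84, 0.83 and 0.82). For Acan they included Tent5b and Sf3a1 (0.91 and 0.89), and for Alpl they were Mkln1os, Zfp982 and Macf1 (0.90, 0.87 and 0.81). For the low genes Ibsp and Runx2 they were Igfbp2, Engase and Rnf152 (0.85, 0.85 and 0.83) and Lgals3bp, Efhd2 and Sh3bp2 (0.83, 0.82 and 0.81). These are the highest of many correlations and are given as a description.

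Since RUNX2 is both a member and a DNA-binding factor, the promoter windows of the members were searched for the RUNX core, and those of Runx2 itself and of 3 members that correlated with each other in Aorta (Ibsp, Enpp1 and Acan) are shown. The motif was TGTGGT or, on the other strand, ACCACA. RefSeq promoter windows of build GRCm38.p6 were found for 8 of the 10 genes, those of Mgp and Tnfrsf11b being missing from the table. The 250 bases before the start of transcription are shown 5′ to 3′ on the gene's own strand, with the core in capitals where it occurs, for Ibsp (chr5:104299037-104299286, plus strand), Enpp1 (chr10:24712160-24712409, minus strand), Acan (chr7:79052976-79053225, plus strand) and Runx2 (chr17:44814628-44814877, minus strand).
Ibsp: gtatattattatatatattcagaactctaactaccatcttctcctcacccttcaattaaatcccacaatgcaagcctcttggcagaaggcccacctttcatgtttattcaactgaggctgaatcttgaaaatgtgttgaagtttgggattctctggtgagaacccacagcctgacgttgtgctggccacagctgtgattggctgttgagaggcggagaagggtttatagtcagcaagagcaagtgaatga
Enpp1: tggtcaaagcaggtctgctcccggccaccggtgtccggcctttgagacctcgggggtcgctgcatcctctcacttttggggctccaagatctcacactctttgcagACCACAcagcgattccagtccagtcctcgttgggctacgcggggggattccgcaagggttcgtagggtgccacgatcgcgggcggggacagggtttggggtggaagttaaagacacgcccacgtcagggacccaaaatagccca
Acan: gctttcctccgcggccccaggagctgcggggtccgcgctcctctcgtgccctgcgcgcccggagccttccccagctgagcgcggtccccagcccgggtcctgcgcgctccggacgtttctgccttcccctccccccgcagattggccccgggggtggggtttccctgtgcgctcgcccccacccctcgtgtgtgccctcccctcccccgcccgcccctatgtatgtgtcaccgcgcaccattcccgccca
Runx2: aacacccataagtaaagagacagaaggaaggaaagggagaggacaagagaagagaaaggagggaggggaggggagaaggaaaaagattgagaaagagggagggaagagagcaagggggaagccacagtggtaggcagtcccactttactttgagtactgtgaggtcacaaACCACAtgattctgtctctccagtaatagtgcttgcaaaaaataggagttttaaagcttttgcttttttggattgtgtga
The core was found once in Enpp1, starting 144 bases before the start of transcription, and once in Runx2, 80 bases before it. It was found in neither Ibsp nor Acan, nor in the windows of Alpl, Cytl1, Chad and Omd. The core stands in 14.0% of all 32851 promoter windows of this length. A match is a run of letters, and its binding by a factor was not measured.

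The other genes of these pathways in Aorta were taken from lists that were drawn up with earlier results of these data known, so their calls are no independent support. Over all 15186 genes tested in Aorta, 0.0856%, 5.82% and 5.6% passed an adjusted p of 0.05 at 15, 24 and 30 months, and the genes named below for a change at that age were chosen after their values were seen. Of 32 cartilage genes 18 were tested, and 1 rose by 30 months, where 5.6% of all genes passed. This was Hapln1, the link protein that ties aggrecan to hyaluronan, with means of 25.5 ± 5.88 (SD, n = 4) at 6 months, 22.6 ± 6.91 at 15 months, 52.3 ± 12.6 at 24 months and 62.1 ± 11.6 at 30 months. The log2 difference was 1.26 ± 0.25 at 30 months (adjusted p = 0.0105, limma) and 1.01 ± 0.25 at 24 months (adjusted p = 0.0287). With the adipocyte covariate no cartilage gene passed. Prg4, lubricin, also rose by 24 months, by 2.19 ± 0.37 (adjusted p = 0.00426), with means of 77.2 at 6 months, 342 at 24 months and 146 at 30 months. Sox9, the regulator of chondrocyte fate, had a mean of 28.7 at 6 months and 28.1 at 30 months (log2 difference 0.03 ± 0.36), and Col2a1, the collagen of cartilage, at most 3.91 in any library. The median log2 difference of the tested cartilage genes at 30 months was 0.24, beside 0.01 over all genes.

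Of 22 osteoblast and mineralisation genes 15 were tested in Aorta, and by limma 0 passed at 30 months, with 6 at an unadjusted p under 0.05, 0 by edgeR and 3 by DESeq2. The 3 were Phex, an endopeptidase of phosphate balance (1.07 by DESeq2), Sparc, osteonectin (-0.32), and Col1a2 (-0.46), also named after their values were seen. Without 6 month replicate 1 limma called 2 genes of the list, and without 15 month replicate 4 it called 1. At 24 months 1 rose, the phosphate transporter gene Slc20a2, by 0.48 ± 0.11 (adjusted p = 0.0237), and 2 fell, Col1a1 by 0.63 ± 0.16 and Col1a2 by 0.57 ± 0.16 (adjusted p = 0.0291 and 0.0426). Among 19 calcification inhibitors and phosphate genes 16 were tested, and by limma 0 passed at 30 months, with 1 at an unadjusted p under 0.05, 0 by edgeR and 0 by DESeq2. Xpr1, the phosphate exporter gene, fell at 24 months by 0.38 ± 0.11 (adjusted p = 0.0454). Abcc6, whose loss causes ectopic calcification, had at most 4.25 normalised reads. Of 13 small leucine-rich proteoglycans 12 were tested, and by limma 0 passed at 30 months, with 2 at an unadjusted p under 0.05, 0 by edgeR and 0 by DESeq2. Ogn and Ecm2 fell at 24 months, by 0.70 ± 0.15 and 0.67 ± 0.15 (adjusted p = 0.0177 and 0.0199). The median log2 difference of the tested proteoglycans was -0.34, -0.25 and -0.17 at 15, 24 and 30 months, with 10, 10 and 9 of the 12 below 0. The fibroblast markers were below their 6 month level in 6 of 6 at all 3 ages, with a median of -0.23 at 30 months, and Lum and Dcn stand in both lists, as Col1a1 does in the fibroblast and osteoblast lists. The smooth muscle markers were lower at 24 months as well (10 of 10, median -0.61, with 1 of them, Synpo2, past the threshold). The part of these cell types in the values at 24 months was not tested.

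Among the 8 tissues at 6 months, levels are given as RPM, reads scaled to the total of the library. Each table was normalised separately, so these levels carry no test. Mgp was highest in Lung, at 807 ± 13.6 (SD, n = 4), then Aorta at 326 ± 43.4, Heart at 98.5 ± 11.97, Kidney at 78.5 ± 3.15 and Muscle at 54.1 ± 12.5, with no overlap between neighbours, and lowest in Liver at 0.822 ± 0.39. Cytl1 was highest in Aorta, at 25.6 ± 7.53, and overlapped with Lung at 19.7 ± 2.84. Omd was highest in Aorta, at 4.60 ± 0.71, but overlapped with Liver at 4.18 ± 0.42, which came first when the libraries were scaled by TMM. Ibsp was highest in Aorta, at 0.148 ± 0.12, and overlapped with Brain.

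Both enzymes of pyrophosphate were highest in Kidney, Alpl at 268 ± 17.4 and Enpp1 at 48.3 ± 3.82 RPM, above the next tissues (Heart at 24.3 ± 0.56 and Liver at 25.2 ± 1.60) without overlap. In Aorta Alpl had 11.95 ± 2.56, rank 4 of the 8 tissues, and Enpp1 5.47 ± 0.73, rank 6. Aorta overlapped with Brain for Alpl and with Brain and Muscle for Enpp1. Scaling by TMM changed the rank of 3 tissues for Alpl, 4 for Enpp1, 5 for Tnfrsf11b and 6 for Cytl1. The highest tissue of each of these genes stayed the same. Tnfrsf11b was highest in Skin, at 16.9 ± 3.68, with Aorta at 4.13 ± 0.82, Lung at 3.96 ± 0.67 and Liver at 3.81 ± 0.77 overlapping. Runx2 was highest in Lung, at 9.12 ± 0.55, Brain, at 6.53 ± 0.93, and Skin, at 4.87 ± 0.42, and reached 0.494 ± 0.33 in Aorta. Acan was highest in Brain, at 4.21 ± 0.72, where aggrecan forms the nets around neurons, with Aorta at 1.52 ± 1.02. Chad was highest in Muscle, at 35.7 ± 30.8, and Lung, at 33.5 ± 3.15, which overlapped. In Muscle its largest value, 1438 normalised reads in replicate 4, came from the library with the largest tendon marker sum of the 6 month libraries, 15646 against 5622 to 7933 in the other 3. The part of tendon in this level was not tested.

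**Figure D3:**
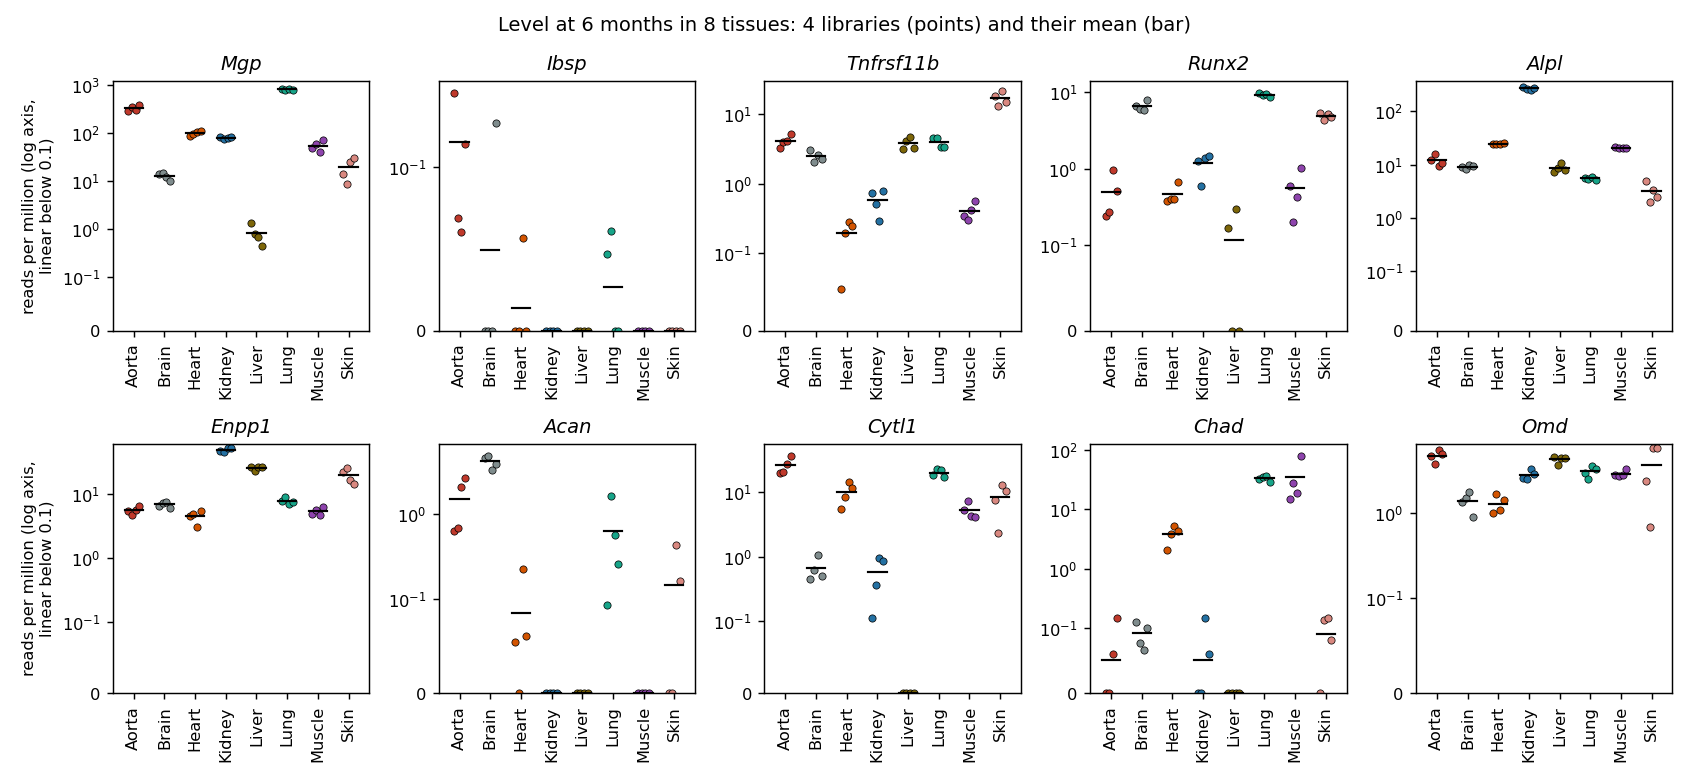
Level of the 10 genes in RPM (y axis, logarithmic, linear below 0.1) at 6 months in 8 tissues (x axis), with 4 libraries as points and their mean as a bar. Mgp is highest in Lung (807) and Aorta (326). Cytl1, Omd and Ibsp have their highest mean in Aorta, each overlapping with the next tissue, and under TMM scaling Omd is highest in Liver.

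Outside Aorta, the 10 genes gave 70 pairs of gene and tissue, of which 53 were tested. At 30 against 6 months 12 passed an adjusted p of 0.05, 10 higher and 2 lower, where 13.8% of all gene and tissue pairs passed (7.34% higher and 6.46% lower). Among the 12 were Tnfrsf11b in Heart and Runx2 in Liver, both too low to test when only the 2 ages compared were fitted. At 24 months 7 passed, 6 higher and 1 lower, where 6.55% passed (4.16% and 2.4%), and at 15 months 2 passed, both higher, where 0.659% passed (0.479% and 0.18%). The count at 24 months was 4 without the filter on low values, and higher by DESeq2 than by limma in Heart, Liver and Skin. The count at 15 months was 5 when only the 2 ages compared were fitted, 4 by DESeq2, 4 without Kidney 30 month replicate 3, and 1 to 3 when a library of the ages compared was left out, falling to 1 without any 1 of 5 Heart and 6 Liver libraries. By tissue, the share of all genes passing at 30 months was 7.2% in Brain, 5.16% in Heart, 28.2% in Kidney, 23.8% in Liver, 19.4% in Lung, 13.1% in Muscle and 0.723% in Skin. At 24 months it was 0.634%, 4.92%, 10.6%, 10.9%, 15.1%, 1.77% and 1.85% in the same order, and at 15 months 0.0237%, 0.588%, 0.478%, 1.15%, 1.63%, 0.605% and 0.172%. Members passed at 30 months in 2 cases in Heart, 3 in Kidney, 4 in Liver, 2 in Lung and 1 in Muscle. No member passed in Brain or Skin at any age by limma. At an unadjusted p under 0.05 there were 1, 1 and 1 members in Brain and 2, 3 and 1 in Skin at 15, 24 and 30 months. By edgeR 0 passed in either tissue, and by DESeq2 0 passed in Brain and 1 in Skin, Cytl1 at 24 months. A lack of overlap with 6 months, given below for some members, was common among all genes tested. At 30 months 1393 of 14280 genes were higher without overlap in Heart, 2021 of 15706 in Kidney and 1942 of 14304 in Liver. In Lung 1901 of 17112 were higher and 1467 lower, and in Skin 536 of 16883 were higher. In Liver 870 were higher at 15 months and 1663 at 24 months.

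Mgp rose in Heart and Kidney. In Heart it had 1485, 1569, 1884 and 1888 normalised reads at 6 months and 3223, 2105, 2886 and 2810 at 30 months, with no overlap. The log2 change was 0.68 ± 0.13 (adjusted p = 0.00531, limma) at 30 months, 0.43 ± 0.13 (0.0711) at 24 months and 0.66 ± 0.13 (0.026) at 15 months. The call at 15 months was lost without any 1 of 6 month replicates 1 and 2 or 15 month replicates 2, 3 and 4, with adjusted p up to 0.112 and a change of 0.59 to 0.66 in those fits. At 24 months Mgp passed by DESeq2 (adjusted p = 0.0179), without Heart 24 month replicate 4 (0.53, adjusted p = 0.00782), the library least like the other Heart libraries (median Spearman rho 0.914), and without 30 month replicate 2 (adjusted p = 0.0414). In Kidney it had 1369, 1257, 1373 and 1352 at 6 months, 2594, 2491, 3111 and 2986 at 24 months and 2547, 2941, 1351 and 3449 at 30 months. The change was 1.06 ± 0.19 (adjusted p = 0.0025) at 24 months and 0.86 ± 0.19 (adjusted p = 0.00334) at 30 months. Replicate 3 at 30 months was at the 6 month level, and without it the change at 30 months was 1.14. Without that library the change at 15 months, 0.73, also passed (adjusted p = 0.00105, against 0.102 with it), as it did by DESeq2 (0.00885) and with the 2 ages alone (0.000186). In Lung, where Mgp was most abundant, it had 13215, 13042, 13653 and 13280 at 6 months and 10647, 6555, 14899 and 7728 at 30 months. That change was -0.49 ± 0.18 (adjusted p = 0.0681), and -0.71 (adjusted p = 0.00173) without replicate 3. Of 10 smooth muscle markers 7 fell in Lung at 30 months (median -0.63). In Kidney, where Mgp rose, 2 of 8 tested rose at 24 months (median 0.32) and 3 of 8 at 30 months (median 0.44). In Heart at 30 months 0 of 10 passed by limma, with 3 at an unadjusted p under 0.05, 0 by edgeR and 2 by DESeq2 (median 0.12). The part of smooth muscle in these values was not tested.

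Tnfrsf11b rose in Heart and Liver. In Heart, at 14 reads in all at 6 months, it had 0.958, 3.34, 5.02 and 4.17 normalised reads, against 18.7, 8.64, 16.2 and 14.3 at 30 months, with no overlap. The log2 change was 1.62 ± 0.38 (adjusted p = 0.0232) at 24 months and 1.89 ± 0.38 (adjusted p = 0.00737) at 30 months, and the latter was 1.21 with a pseudocount of 5. With 6 and 30 months alone Tnfrsf11b was too low to test in Heart, so its call at 30 months rests on the filter over all 4 ages. The call at 24 months was lost without 6 month replicate 1 (1.27, adjusted p = 0.0633) or 24 month replicate 2 (1.39, adjusted p = 0.0563), and with no filter (adjusted p = 0.0512). In Liver it had 66.5, 86.1, 101 and 71.5 at 6 months and 127, 201, 172 and 134 at 30 months, again with no overlap, a change of 0.95 ± 0.18 (adjusted p = 0.00195). In Skin, where it was most abundant, the change at 30 months was 0.46 ± 0.23 (adjusted p = 0.401), and in Lung -0.70 ± 0.32 (adjusted p = 0.141).

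Runx2 rose in Kidney, Liver and Lung at 30 months. In Kidney it had 21.1, 10.03, 24.1 and 24.3 normalised reads at 6 months and 28.6, 42.1, 44.4 and 51.6 at 30 months, a change of 1.07 ± 0.26 (adjusted p = 0.00643). In Lung it had 155, 147, 159 and 141 at 6 months and 223, 189, 204 and 345 at 30 months, a change of 0.63 ± 0.17 (adjusted p = 0.0146), and it was higher by 0.65 ± 0.17 (adjusted p = 0.0161) at 24 months. In Liver it had 3.60, 0, 6.42 and 0 at 6 months, 6 reads in all, and 10.7, 13.9, 23.9 and 7.55 at 30 months. That change was 2.52 ± 0.60 (adjusted p = 0.0069), and 2.84 ± 0.60 (adjusted p = 0.00866) at 24 months. With 6 and 30 months alone Runx2 was too low to test in Liver, so its call at 30 months rests on the filter over all 4 ages. From so few reads the size depends on the pseudocount, being 1.36 at 30 months with 5 and 4.2 with 0.1. None of the 3 tissues had overlap between 6 and 30 months.

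Runx2 also rose in Heart at 24 months, by 1.09 ± 0.30 (adjusted p = 0.0491). That call was lost by edgeR, under both other pseudocounts, without the filter, with the replicate block, with the 2 ages alone, and without any 1 of 5 of the 8 Heart libraries compared (6 month replicates 1, 2 and 3, and 24 month replicates 3 and 4) or of 7 of the 8 of the other ages, all but 30 month replicate 4. In those fits the change ran from 0.83, with a pseudocount of 5, to 1.17, and the adjusted p reached 0.219 with the 2 ages alone. In Muscle its change was 1.05 ± 0.37 at 30 months (adjusted p = 0.0714). Leukocyte markers rose at 30 months in 5 of 6 in Kidney, 6 of 6 in Liver and 4 of 6 in Lung, the tissues in which Runx2 rose. They also rose in 4 of 4 tested in Brain, 3 of 5 in Heart and 3 of 4 in Muscle, where Runx2 did not pass at 30 months (0.23 ± 0.12 in Brain and 0.72 ± 0.30 in Heart). Their sum ran from 919 to 2375 normalised reads at 6 months to 4048 to 41788 at 30 months in Kidney, from 1380 to 2507 to 5082 to 12616 in Liver, and from 87234 to 102441 to 93612 to 171429 in Lung. In Kidney the 30 month replicate with the lowest leukocyte sum, 4048 in replicate 3, had 44.4 normalised reads of Runx2, and the one with the highest, 41788 in replicate 4, had 51.6. The part of leukocytes in these values was not tested.

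Enpp1 rose in Liver at all 3 ages. It had 545, 476, 560 and 580 normalised reads at 6 months, 698, 799, 715 and 734 at 15 months, 827, 970, 946 and 916 at 24 months and 915, 910, 1145 and 1041 at 30 months. No library of a later age overlapped with 6 months. The change was 0.45 ± 0.09 (adjusted p = 0.0313) at 15 months, 0.76 ± 0.09 (adjusted p = 0.00117) at 24 months and 0.89 ± 0.09 (adjusted p = 0.000119) at 30 months. The call at 15 months was lost without any 1 of Liver 6 month replicates 1, 2 and 3 or 15 month replicates 2, 3 and 4, with adjusted p up to 0.0996 and a change of 0.39 to 0.47 in those fits. In the other 6 tissues its change at 30 months lay between -0.33 ± 0.13 in Muscle (adjusted p = 0.118) and 0.20 ± 0.13 in Lung (adjusted p = 0.319). In Kidney, its site of highest level, the change was 0.06 ± 0.08.

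Alpl rose in Kidney, where it was most abundant. It had 4856, 4375, 4355 and 4645 normalised reads at 6 months and 6043, 5590, 8908 and 6011 at 30 months, with no overlap, a change of 0.52 ± 0.12 (adjusted p = 0.00451). Without replicate 3, the 30 month library with the highest Alpl, the change was 0.37 and still passed, and the changes at 15 and 24 months (0.37 and 0.27) passed as well (adjusted p = 0.0268 and 0.0263). By limma on all 4 ages Alpl passed in no other tissue at any age. The largest difference among them was 0.88 ± 0.33 in Skin at 15 months (adjusted p = 0.214). In Liver at 24 months the change was 0.65, and it passed by DESeq2 (adjusted p = 0.0252), with the 2 ages alone (0.0303), and without 15 month replicate 3 (adjusted p = 0.0314), 24 month replicate 1 (0.0338) or 30 month replicate 3 (0.0472).

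Of the cartilage genes outside Aorta, Chad fell in Lung at 30 months. It had 524, 574, 616 and 495 normalised reads at 6 months and 419, 308, 431 and 309 at 30 months, with no overlap, a change of -0.60 ± 0.11 (adjusted p = 0.0019). In Muscle it had 273, 507, 342 and 1438 at 6 months and 408, 342, 82.8 and 276 at 30 months, with a change of -1.10 ± 0.48 (adjusted p = 0.147). The tendon markers in Muscle summed to 5622 to 15646 at 6 months and 4078 to 6148 at 30 months, the lowest sum at 30 months being in the library with 82.8. The part of tendon in these values was not tested. Cytl1 rose in Muscle at 30 months, with 94.7, 131, 76.8 and 72.2 at 6 months and 113, 127, 173 and 206 at 30 months, a change of 0.72 ± 0.22 (adjusted p = 0.0427). It was lost without any 1 of 6 month replicates 1, 3 and 4, 30 month replicates 3 and 4, 15 month replicate 3 or 24 month replicates 1, 2 and 3, with changes of 0.57 to 0.74 and adjusted p up to 0.12 in those fits, and also with no filter (0.0653) and with the 2 ages alone (0.0906). In Skin Cytl1 differed by 1.49 ± 0.45 (adjusted p = 0.142) with no overlap.

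Omd passed in Liver at 30 months and in Lung at 24 months, in both as lower. In Liver it had 95.3, 74.3, 93.1 and 95.4 normalised reads at 6 months and 32.2, 80.5, 42.4 and 62.9 at 30 months, a change of -0.78 ± 0.26 (adjusted p = 0.0401). The call was lost without any 1 of 6 month replicates 1, 3 and 4 or 30 month replicates 1 and 3, with changes of -0.76 to -0.56 and adjusted p up to 0.12 in those fits. It was also lost by edgeR (-0.71, adjusted p = 0.0622), with no filter (0.0695) and with the 2 ages alone (0.0781). Replicate 3 at 30 months was the library least like the other Liver libraries (median Spearman rho 0.941). At 15 months Omd differed by -0.98, and passed without that library (adjusted p = 0.0452), by DESeq2 (0.0155) and with the 2 ages alone (0.0206). In Lung it had 46.8, 39.9, 58.4 and 54.4 at 6 months, 46.1, 12.5, 27.5 and 23.5 at 24 months and 45.6, 71.4, 60.8 and 70.8 at 30 months. The change was -0.96 ± 0.28 (adjusted p = 0.0291) at 24 months and 0.30 ± 0.28 (adjusted p = 0.49) at 30 months. The call at 24 months was lost without any 1 of Lung 6 month replicates 3 and 4 or 24 month replicates 2 and 4, with changes of -0.94 to -0.65 and adjusted p up to 0.0865 in those fits, and also with no filter (0.0522) and with the 2 ages alone (0.0705). Acan was tested outside Aorta only in Brain and Skin. In Brain, its main site, it had a mean of 73.4 ± 12.01 (SD, n = 4) at 6 months and 75.4 ± 19.3 at 30 months, a change of 0.02 ± 0.21 (adjusted p = 0.972).

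**Figure D4:**
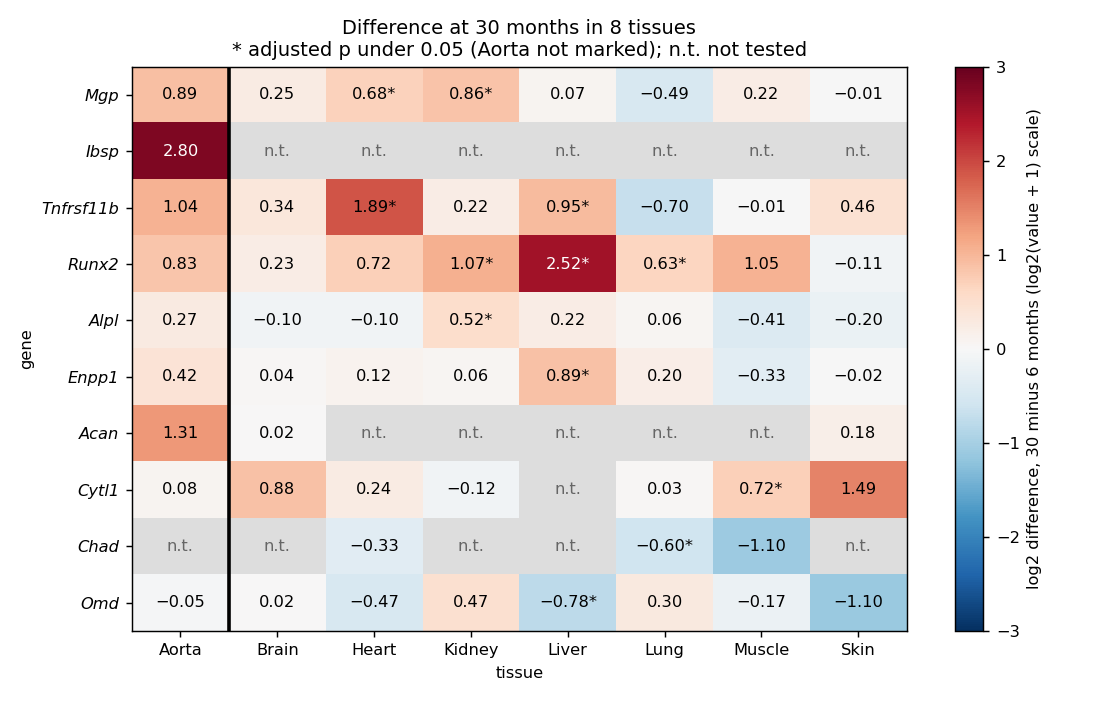
Log2 difference between 30 and 6 months (colour and number in each cell) for the 10 genes (rows) in 8 tissues (columns), with an asterisk for an adjusted p under 0.05 outside Aorta and n.t. where the gene was too low to test. Of the 53 tested cells outside Aorta 12 carry the asterisk, 10 higher and 2 lower, and none of them is in Brain or Skin.

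Whether the change from 6 to 30 months was the same in the 7 other tissues was tested by an F test in limma on 21298 genes, and 27.2% of the genes passed. Libraries of all tissues were taken as independent and with a common spread per gene. The SEs given below come from the separate fit of each tissue. For Runx2 they ran from 0.12 in Brain to 0.60 in Liver, so the common spread does not describe each tissue. Of the 9 members tested 4 passed: Runx2 (adjusted p = 0.000122), Tnfrsf11b (0.000143), Enpp1 (0.000286) and Mgp (0.0352). Runx2 changed from -0.11 ± 0.18 in Skin to 2.52 ± 0.60 in Liver, and Tnfrsf11b from -0.70 ± 0.32 in Lung to 1.89 ± 0.38 in Heart. Mgp changed from -0.49 ± 0.18 in Lung to 0.86 ± 0.19 in Kidney. For Alpl, Acan, Cytl1, Chad and Omd the adjusted p was 0.209, 0.379, 0.23, 0.299 and 0.109. Aorta was not part of this test, because its values chose the genes. Beside these changes, the Aorta difference at 30 months was 0.89 for Mgp, close to Kidney, 1.04 for Tnfrsf11b, between Liver and Heart, 0.83 for Runx2 and 0.42 for Enpp1, below Liver.

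**Figure D5:**
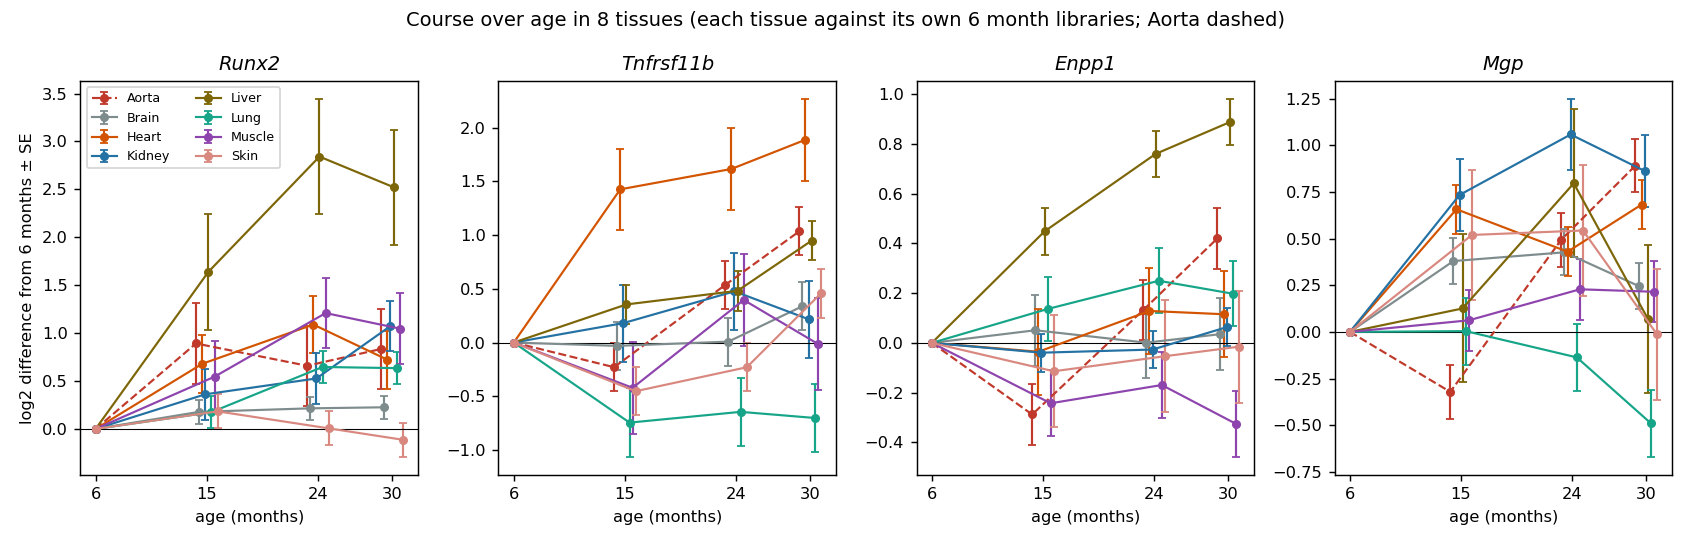
Log2 difference from 6 months with its SE (y axis) against age in months (x axis) for Runx2, Tnfrsf11b, Enpp1 and Mgp, with 1 line per tissue and Aorta dashed. Runx2 reaches 2.52 in Liver, Tnfrsf11b 1.89 in Heart and Enpp1 0.89 in Liver at 30 months, while Mgp lies between -0.49 in Lung and 0.86 in Kidney outside Aorta.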

How the data were processed

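Per the labels' protocols, RNAiso Plus was used for extraction and the Illumina Stranded mRNA Prep for the libraries. The submitters' processing notes name FastQC, STAR, RSEM, DESeq2 and build GRCm39, without versions. No annotation release is given in the sources read. The authors deposited 1 table per tissue of 55285 gene symbols in 16 libraries, as a normalised signal: each value is a whole number of reads divided by 1 size factor per library within that table, so values of different tables are not on 1 scale. The reads were recovered from the steps of each column, 100% of values being whole within 0.01. Recovered depth was 7647585 to 82801330 reads per library. Values from few reads are imprecise and are given beside their reads.

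Because the values were normalised, limma 3.58.1 in R 4.3.3 was the test in place of the count test, on log2(value + 1), with 1 mean per age over the 16 libraries of a tissue, genes kept by filterByExpr of edgeR 4.0.16 (minimum count 10), two-sided p-values and Benjamini-Hochberg adjustment over all genes tested at a threshold of 0.05. A log2 difference on this scale understates the change of low genes. The fit was tested on simulated data. Alternatives were edgeR with TMM and DESeq2 1.42.0 on the recovered reads, pseudocounts of 0.1 and 5, no filter, the replicate number as a term, the 2 ages alone, and leaving out each library. Marker sums as covariates, log2 CPM with TMM, and leaving out libraries of ages not compared were added after seeing the data. Among libraries of the same tissue and age no pair was a copy, the lowest chi-square per degree of freedom being 2.41. Pairs across ages or tissues were not compared. The members and lists were chosen with earlier results of these data known. Named genes were the members, the list genes past the threshold in Aorta at 30 months, each list's defining genes, and the 3 genes most correlated with a member in Aorta among those with a mean of 50 reads or more, without Gm and Rik symbols; 1 of these is not reported here. Exon lengths were unions of exons in GENCODE M21 (build GRCm38), another build than that of the tables, and promoter windows came from RefSeq (GRCm38.p6).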

Additional observations from a re-analysis of the deposited data

Results flagged for a closer look

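Among 89 sets of 4 libraries of 1 tissue and age in which a member was looked at, 6 held a library whose gap to the nearest of the others, as a share of the whole range, was over Dixon's critical value, which chance alone passes in about 1 of 20 such sets. Of these, 2 were in Heart. Tnfrsf11b stood at 18.6 normalised reads in Heart at 24 months in replicate 2, the other 3 libraries being at 8.71 to 10.4. Runx2 stood at 11.5 in Heart at 6 months in replicate 4, the others being at 6.68 to 7.03. Alpl had 8908 in Kidney at 30 months in replicate 3, against 5590 to 6043. In Aorta, Acan had 85.6 at 30 months in replicate 4, against 45.8 to 47.9, and Cytl1 had 310 at 15 months in replicate 3, against 434 to 450. Omd had 74.3 in Liver at 6 months in replicate 2, against 93.1 to 95.4.

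The change from 6 to 30 months differed among the 7 tissues other than Aorta for 4 members by the F test of limma, with adjusted p of 0.000122 for Runx2, 0.000143 for Tnfrsf11b, 0.000286 for Enpp1 and 0.0352 for Mgp.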

How the results depend on the processing

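Of the changes outside Aorta that passed in some fit named here, none changed sign under an alternative. In Aorta at 30 months the small differences of Cytl1 (-0.16 to 0.28) and Omd (-0.14 to 0.02) took either sign, and those of the other 7 tested members kept theirs. Of the calls outside Aorta, 10 of 12 at 30 months, 4 of 7 at 24 months and 0 of 2 at 15 months passed under every alternative that gave a value. With the 2 ages alone, Tnfrsf11b in Heart and Runx2 in Liver at 30 months were too low to test. The count at 15 months was 5 with the 2 ages alone, 4 by DESeq2 and 1 with the replicate block, and 1 to 3 when 1 library of these ages was left out. It was 4 without Kidney 30 month replicate 3. At 24 months the count was 4 with no filter and 5 to 8 when 1 library was left out. By DESeq2 it was 3 in Heart, 3 in Liver and 1 in Skin, against 2, 2 and 0 by limma, and the same in the other tissues. At 30 months the count was 11 to 14 when 1 library was left out. Cytl1 in Muscle and Omd in Liver lost their calls at 30 months with no filter and with the 2 ages alone. The members whose change differed among tissues numbered 3 to 5. In Aorta the cartilage count of 1 became 0 with the adipocyte covariate. The osteoblast count of 0 became 3 by DESeq2, 3 with the smooth muscle covariate, 1 without 15 month replicate 4, and 0 to 2 when a library of the ages compared was left out. The proteoglycan count of 0 became 2 with the smooth muscle covariate (Bgn higher, Ecm2 lower). The number of all genes passing in Aorta at 30 months, 850, was 433 with the 2 ages alone, 550 with no filter, 1589 by DESeq2 and 48 with the adipocyte covariate. It was 296 to 1150 when a library of these ages was left out. It was 296, 333, 553 and 471 without 30 month replicates 3, 1, 2 and 4, and 335 and 533 without 6 month replicates 2 and 3. Where a setting tests fewer or more genes or libraries that is its construction; otherwise the cause was not tested.

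Libraries of the same number in different ages deviated together in no steady way. The correlations were -0.44 to 0.46 in Aorta, -0.53 to 0.41 in Skin and -0.14 to 0.26 in the other tissues. They were taken within each tissue only and cannot decide whether the numbers pair libraries. Same-numbered libraries of different tissues were not compared. With the replicate block Mgp in Heart at 15 months (adjusted p = 0.0527) and Runx2 in Heart at 24 months (0.0664) no longer passed and Mgp in Lung at 30 months did (0.0337). Ibsp in Aorta, Runx2 in Liver and Tnfrsf11b in Heart rest on few reads, which limits the precision of their size.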
